A study of Mus musculus with 12 samples.

Results

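The miR-29 family was measured in the epididymal fat pad, visceral fat beside the testis, of adult male C57BL/6J wild-type mice exposed to a high-fat diet before birth, until weaning or throughout. The members are every row of the deposited PCR table whose name is miR-29a, miR-29b or miR-29c, in either arm of the hairpin, and there were 5 of 504 microRNA assays: mmu-miR-29a-3p, mmu-miR-29c-3p, mmu-miR-29b-3p and the assays the table calls mmu-miR-29b-1-5 and mmu-miR-29b-2-5p. The group UT met the high-fat diet (D12451, 45% of energy from fat) in utero through the dam. The group UL met it from mating to weaning, and the group WL from mating to termination. Mice of all groups, CD included, were terminated at 23 weeks. The control group CD ate the matching diet D12450H with 10% of energy from fat, and the parents of all groups ate a standard breeding diet before mating. Each group gave 3 pools of RNA from 12 mice, so a pool averages several animals. The mice came from cohorts of 27 mice in 17 litters for UT, 25 in 19 for UL, 23 in 21 for WL and 22 in 17 for CD. The sources used here do not state which litters entered which pool, and the p-values below measure the spread between pools.

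MicroRNAs of the miR-29 family are cut from both arms of a hairpin, and the 3p arm is the one that mainly enters Argonaute and guides it to messenger RNAs through the seed near its 5′ end. The family is best known for repressing genes of the extracellular matrix, among them collagens, elastin and fibrillin, and de novo DNA methyltransferases. In cultured mouse adipocytes, raised miR-29 lowers insulin-stimulated glucose uptake, and a regulatory subunit of phosphoinositide kinase is a target known from human cells. The 5p arms of the miR-29b hairpins are passenger strands, and the 2 hairpins of miR-29b yield the same 3p arm but different 5p arms.

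The mature sequences, taken from RefSeq with the GRCm38.p6 build and matched by name for 5 of 5 assays, are shown because the 3p members share their seed and differ by few bases. Capitals mark the seed, bases 2 to 8 from the 5′ end. The assay listed as miR-29b-1-5 carries no accession in the table and was matched to miR-29b-1-5p.
miR-29a-3p: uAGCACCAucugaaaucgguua
miR-29c-3p: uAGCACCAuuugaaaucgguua
miR-29b-3p: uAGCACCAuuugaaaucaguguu
miR-29b-1-5p: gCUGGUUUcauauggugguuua
miR-29b-2-5p: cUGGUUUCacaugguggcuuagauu

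The seed AGCACCA was carried by 3 mature mouse microRNAs in the RefSeq table, all of them miR-29 3p arms, and by 0 outside the family. With positions counted from 1 at the 5′ end, miR-29a-3p and miR-29c-3p differ by a single substitution, C10U, over 22 bases. From miR-29c-3p to miR-29b-3p the substitutions are G18A, U21G and A22U, and miR-29b-3p has 23 bases. The sources used here do not state how well the PCR assays tell these near-identical strands apart, so each 3p value is uncertain to that extent. The 5p arms have seeds that differ from the 3p seed and from each other.

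The hairpins lie in 2 pairs. Mir29a (chr6:31062660-31062747) and Mir29b-1 (chr6:31063023-31063093) lie on the minus strand of chromosome 6 with 275 bases between them, and no other gene of the annotation overlaps them; the nearest, Lncpint, is 30470 bases from Mir29b-1. Mir29b-2 (chr1:195037040-195037120) and Mir29c (chr1:195037547-195037634) lie on the plus strand of chromosome 1 with 426 bases between them, inside the long noncoding gene A330023F24Rik. MiR-29a-3p therefore shares a locus with miR-29b-1-5p, miR-29c-3p with miR-29b-2-5p, and miR-29b-3p with both.

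MicroRNAs were measured by quantitative RT-PCR, and the values tested were threshold cycles (Ct), the cycle at which the product passes a set signal, so that a lower Ct stands for more template. The Ct of each assay was subtracted from the average Ct of the 466 microRNAs that gave a value in all 12 pools. This relative level is in cycles on the log2 scale, and higher means more template than the average microRNA if the assays amplify alike. Between 490 and 504 microRNAs were measured per pool, the median Ct per pool ran from 24.62 to 25.29, and the number of pools limits the precision. In the family 58 of 60 values were present: miR-29b-3p had no Ct in UT 1 and miR-29b-2-5p none in WL 2. Over all microRNAs, deviations from the group mean had an SD of 0.84 cycles in UT 2 and 0.97 in WL 3, the widest of the 12 pools, and of 0.42 to 0.43 in the UL pools. Of the adipocyte-associated markers listed for a check of the tissue, 3 of 5 matched an assay (miR-103-3p, miR-107-3p and miR-365-3p). Their mean relative level was 0.98 or higher in every pool, although none is found in fat alone. Assays that share the name miR-378 with no arm were measured too. Because of the shared name, none was matched to the listed miR-378a-3p, and they are left out of this mean.

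All 5 members were amplified, between Ct 17.11 and 28.58. mmu-miR-29c-3p stood highest, 6.67 cycles above the average microRNA over all pools (rank 21 of 504), followed by mmu-miR-29a-3p at 6.62 (rank 24) and mmu-miR-29b-3p at 4.94 (rank 57, 11 pools). The passenger arms lay below the average microRNA, mmu-miR-29b-1-5 at -1.21 (rank 311) and mmu-miR-29b-2-5p at -3.02 (rank 391, 11 pools). This order compares assays by Ct, and the sources used here do not state their efficiencies. Within a pool, miR-29a-3p came later than miR-29c-3p in 7 of 12 pools and the difference was 0.06 ± 0.41 cycles (mean ± SD), so these neighbours in the order do not differ beyond their spread. MiR-29b-3p came 1.8 ± 0.97 cycles later than miR-29c-3p, and later in 11 of 11 pools. MiR-29b-1-5 came 6.15 ± 0.91 cycles later than miR-29b-3p, in 11 of 11 pools. The Ct of miR-29b-1-5 minus that of miR-29b-2-5p was -1.81 ± 0.71, below 0 in 11 of 11 pools. The order of guide and passenger strands was thus kept in every pool with both values, whatever the diet.

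**Figure D1:**
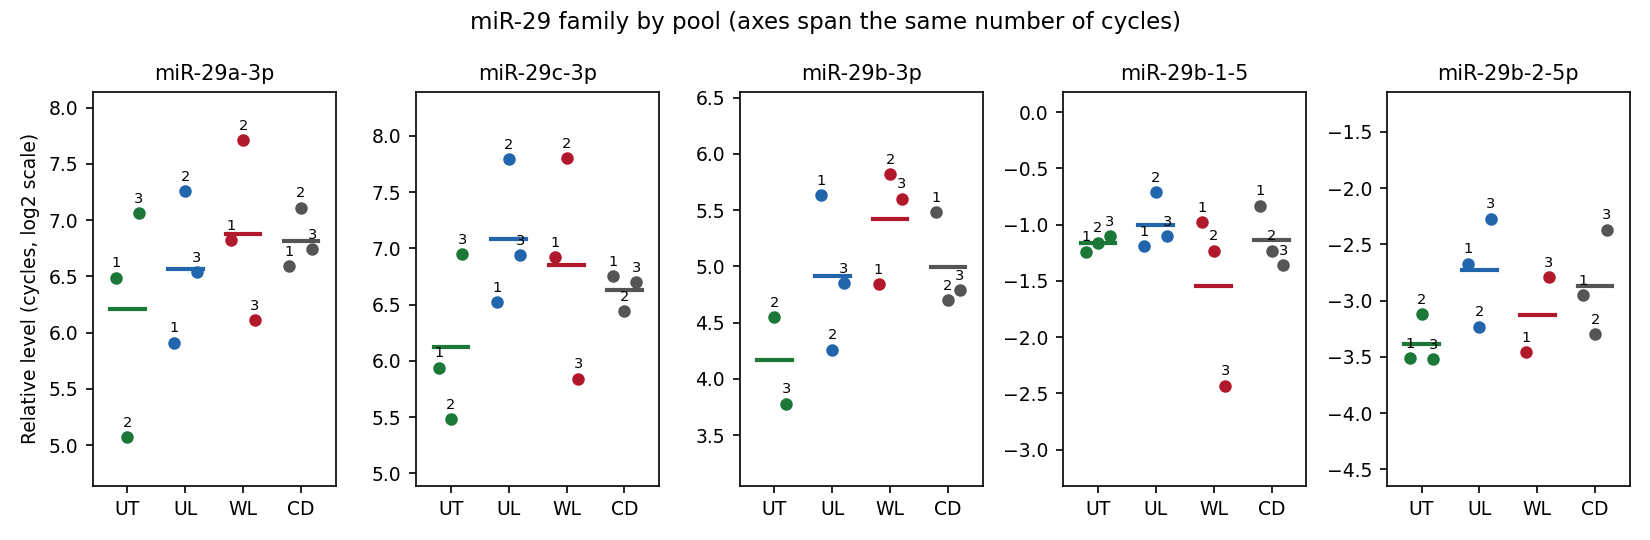
Relative level (cycles, log2 scale) of each miR-29 family assay in every pool of UT, UL, WL and CD; points are pools with their replicate number and bars are group means, and all panels span the same number of cycles. The 3p members sit between 3.78 and 7.80, above the passenger arms between -3.52 and -0.71, and every high-fat group shares part of its range with CD except for miR-29b-3p in UT.

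The first comparison asked what exposure in utero alone left behind in adult fat. In UT, 0 of 5 members passed the threshold of 0.05 on the limma adjusted p against CD, where 1.39% of all microRNAs tested did, and 0 of 5 had an unadjusted p under 0.05, where 51 of 504 microRNAs did. All 5 had a log2 fold change below 0 (with no scaling, miR-29b-1-5 lay at 0.045), with a median of -0.51, while the median of all microRNAs was -0.01 and their quartiles were -0.38 and 0.38. With Ct scaled to the small nucleolar RNA RNU-43, the median of all microRNAs in UT moved to 0.73 and 5 of 5 members lay above 0, between 0.03 and 0.71. The 5 members lay below the median under both scalings. Such scaling shifts all microRNAs of a pool alike, so apart from assays with a missing Ct this place is fixed and is no separate evidence. In whole fat pads, fewer cells of a type and less RNA per cell cannot be told apart.

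MiR-29b-3p, which in human cells is partly nuclear, had relative levels of 4.55 and 3.78 in UT 2 and UT 3, against 5.48, 4.70 and 4.79 in CD. Both UT pools lay below every CD pool, as they did for 13.3% of the microRNAs measured in these 5 pools. The log2 fold change was -0.82 (SE 0.50, 95% interval -1.92 to 0.28, adjusted p = 0.612 by limma), from 2 UT pools. With the missing Ct of UT 1 set to 40, the log2 fold change was -7.33 (SE 4.17, adjusted p = 0.611 by limma), and without UT 3, which leaves UT 2 alone, it was -0.44.

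MiR-29a-3p had relative levels of 6.49, 5.07 and 7.06 in UT, against 6.59, 7.11 and 6.74 in CD. UT 2 was the lowest of all 12 pools and UT 3 lay inside the CD range, so the groups overlapped. The log2 fold change was -0.61 (SE 0.56, 95% interval -1.84 to 0.62, adjusted p = 0.81 by limma), and it was -0.04 without UT 2 and -1.03 without UT 3. MiR-29c-3p had 5.94, 5.48 and 6.95 in UT, against 6.75, 6.44 and 6.70 in CD, again with UT 2 lowest and UT 3 above every CD pool. Its log2 fold change was -0.51 (SE 0.53, 95% interval -1.68 to 0.67, adjusted p = 0.81 by limma), and it was -0.19 without UT 2 and -0.92 without UT 3.

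The passenger arms had unlike log2 fold changes, but a difference between them was not established. The Ct of miR-29b-1-5 minus that of miR-29b-2-5p in the same pool changed by -0.48 cycles from CD to UT (exact permutation p = 0.3). MiR-29b-2-5p had -3.51, -3.12 and -3.52 in UT, against -2.95, -3.30 and -2.37 in CD (log2 fold change -0.51, SE 0.37, adjusted p = 0.708 by limma), with UT 2 inside the CD range, and the log2 fold change was -0.26 without CD 3. MiR-29b-1-5 had -1.24, -1.16 and -1.10 in UT, against -0.83, -1.23 and -1.36 in CD (log2 fold change -0.03, SE 0.38, adjusted p = 1.00 by limma). The UT pools of miR-29b-1-5 lay almost on top of each other, with an SD of 0.07.

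Markers of cells that a fat pad can hold were read in the same pools, and 0 of them passed the limma threshold in UT. The 3 adipocyte-associated markers had a mean relative level of 1.26 to 1.55 over the UT pools, against 1.78 to 1.98 over the CD pools. The 4 of 4 markers of stroma and smooth muscle, tissues rich in collagen, averaged 5.00 to 5.42 in UT, against 5.54 to 6.04 in CD. For the average of the stromal markers and that of these 3 adipocyte-associated markers, all UT pools lay below all CD pools. Taken singly, miR-143-3p and miR-103-3p separated in this way, and the other markers of these averages overlapped. For example, miR-145a-5p stood at 7.27 in UT 2, against 6.59 in CD 2, and miR-107-3p stood at 0.03 in UT 3, above every CD pool. The miR-378 assays, left out of the adipocyte average, did not follow. An average with any of them was not computed, so the separation is not shown for the full adipocyte list. A miR-378 assay had 0.73, 0.58 and -0.11 in UT, all above its CD pools at -0.23, -0.57 and -0.35. Another had 1.28, 2.05 and 1.00 in UT, against 0.74, 1.54 and 2.06 in CD. The 5 of 5 leukocyte markers averaged 0.65 to 1.31 in UT, against 1.55 to 1.96 in CD, and the 6 of 6 epithelial markers, miR-205-5p and the miR-200 group, 0.24 to 2.25 in UT, against 1.71 to 4.26 in CD. The 2 of 2 endothelial markers averaged 6.90 to 7.54 in UT and 6.74 to 7.64 in CD, but they went in opposite directions. The log2 fold change in UT was -1.19 (SE 0.46, adjusted p = 0.395 by limma) for miR-126a-3p, with all UT pools below all CD pools. For miR-126a-5p it was 1.36 (SE 0.34, adjusted p = 0.077 by limma), with all UT pools above all CD pools. The ranges of these averages overlapped for epithelium and endothelium and not for leukocytes. The share of all microRNAs whose UT and CD pools separate this way is not given here. The 2 of 3 erythroid markers measured averaged 4.27 to 5.09 in UT and 4.07 to 4.93 in CD, the 3 of 3 skeletal muscle markers -2.74 to -0.70 in UT and -1.67 to -1.40 in CD, and miR-122-5p, the liver marker, -1.54 to -0.70 in UT and -1.54 to -0.20 in CD. The part of these cells in the values of the miR-29 family was not tested.

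The second comparison asked whether exposure up to weaning still showed in adult fat. In UL, 0 of 5 members passed against CD, where 0.595% of microRNAs did, and 0 had an unadjusted limma p under 0.05, where 14 of 504 microRNAs did. MiR-29c-3p had relative levels of 6.52, 7.79 and 6.94 in UL, against 6.75, 6.44 and 6.70 in CD (log2 fold change 0.45, SE 0.53, 95% interval -0.72 to 1.63, adjusted p = 0.995 by limma). UL 2 and UL 3 lay above every CD pool and UL 1 lay inside their range; without UL 2 the log2 fold change was 0.10. MiR-29a-3p had 5.91, 7.26 and 6.54 in UL, with the same pool highest and the same pool lowest, and a log2 fold change of -0.24 (SE 0.56, adjusted p = 0.995 by limma), which was 0.09 without UL 1. Scaled to RNU-43 it was 0.12, where the median of all microRNAs was 0.30. MiR-29b-3p had 5.63, 4.26 and 4.85 in UL, with UL 1 highest and UL 2 lowest, and a log2 fold change of -0.07 (SE 0.44, adjusted p = 0.995 by limma). The passenger arms stood at -1.19, -0.71 and -1.10 for miR-29b-1-5 (log2 fold change 0.14, SE 0.38) and at -2.67, -3.23 and -2.27 for miR-29b-2-5p (log2 fold change 0.15, SE 0.37), both overlapping CD. The family's median log2 fold change in UL was 0.14, beside -0.07 for all microRNAs.

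The third comparison asked which members differed under a high-fat diet from mating to 23 weeks. In WL, 0 of 5 members passed against CD, where 0.595% of microRNAs did, and 0 had an unadjusted limma p under 0.05, where 36 of 504 did. MiR-29b-3p had relative levels of 4.84, 5.82 and 5.60 in WL, against 5.48, 4.70 and 4.79 in CD (log2 fold change 0.43, SE 0.44, 95% interval -0.55 to 1.41, adjusted p = 0.956 by limma). WL 2 and WL 3 lay above every CD pool, and WL 1 did not. MiR-29a-3p had 6.82, 7.71 and 6.11 in WL (log2 fold change 0.07, SE 0.56, adjusted p = 0.994 by limma) and miR-29c-3p had 6.92, 7.80 and 5.84 (log2 fold change 0.22, SE 0.53, adjusted p = 0.978 by limma). For both, WL 2 was the highest of all 12 pools and WL 3 lay below every CD pool. Without WL 2 the log2 fold changes were -0.35 for miR-29a-3p and -0.25 for miR-29c-3p, and without WL 3 they were 0.46 and 0.74.

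MiR-29b-1-5 had -0.98, -1.23 and -2.43 in WL, against -0.83, -1.23 and -1.36 in CD (log2 fold change -0.41, SE 0.38, adjusted p = 0.956 by limma). WL 3 was the lowest of all pools, and without it the log2 fold change was 0.05. MiR-29b-2-5p had -3.46 and -2.79 in WL 1 and WL 3, a log2 fold change of -0.26 (SE 0.42, adjusted p = 0.978 by limma), which was 0.08 without WL 1. WL 3, which set the ends of several of these ranges, is also the pool that strayed most over all microRNAs. Over the 4 groups, the F test of limma gave adjusted p values of 0.621 for miR-29b-3p and 0.785 or more for the other members, where 0.397% of microRNAs passed.

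**Figure D2:**
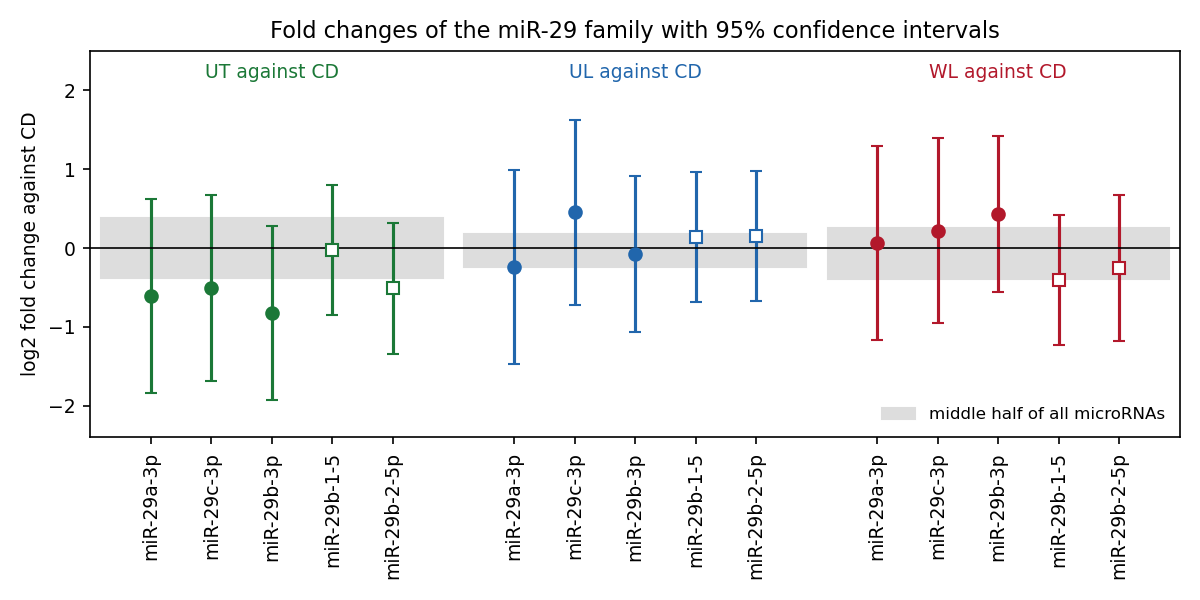
Log2 fold change against CD (vertical axis) of each family assay in UT, UL and WL, with 95% confidence intervals from limma; filled circles are 3p members, open squares passenger arms, and the grey band runs from the lower to the upper quartile of all 504 microRNAs. All 15 intervals include 0, and the lowest point is miR-29b-3p in UT at -0.82.

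The high-fat groups were also set against each other, and 0 members passed in any of these comparisons, where 0 microRNAs passed at all; at an unadjusted limma p under 0.05 there were 40 in UL against UT, 27 in WL against UL and 79 in WL against UT. The smallest unadjusted p of the family was that of miR-29b-3p in WL against UT (log2 fold change 1.25, SE 0.50, 95% interval 0.15 to 2.35, adjusted p = 0.262 by limma), the only member of any comparison with an unadjusted p under 0.05. Scaled to RNU-43 this log2 fold change was 0.42 (adjusted p = 0.579 by limma), where the median of all microRNAs was -0.81, and with the missing Ct of UT 1 set to 40 it was 7.76. All 3 WL pools, between 4.84 and 5.82, lay above both UT pools at 4.55 and 3.78; the same separation was found for 15.6% of the microRNAs measured in these 5 pools. In the same comparison miR-29a-3p had 0.67, miR-29c-3p 0.73 (0.0033 scaled to RNU-43), miR-29b-2-5p 0.25 and miR-29b-1-5 -0.38. In UL against UT the log2 fold changes were above 0 in 5 of 5 members (scaled to RNU-43, miR-29a-3p lay at -0.013 and miR-29b-1-5 at -0.21, where the median of all microRNAs was -0.41), led by miR-29c-3p at 0.96 (SE 0.53, adjusted p = 0.686 by limma) and miR-29b-3p at 0.75 (SE 0.50, adjusted p = 0.792 by limma). With 1 pool left out these ran from 0.61 (without UL 2) to 1.37 (without UT 3) and from 0.36 (without UT 3) to 1.13 (without UT 2), and scaled to RNU-43 they were 0.58 and 0.26. In WL against UL they ran from -0.55 for miR-29b-1-5 to 0.50 for miR-29b-3p. These comparisons share the UT, UL or WL pools with those above and are no separate evidence.

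Scaling cancels in the difference of Ct between members of the same pool, which was compared over the groups for all 10 pairs of members. In an exact permutation test over the pools of all 4 groups, 0 of 10 pairs had p under 0.05 (lowest exact p = 0.126, lowest adjusted p = 0.718 over the 10 pairs). MiR-29a-3p came 0.61, 0.53 and 0.40 cycles later than miR-29c-3p in UL, against 0.16, -0.67 and -0.04 in CD, where a minus sign means earlier. All 3 UL pools lay above every CD pool, a difference in means of 0.70 cycles (exact permutation p = 0.1, the smallest that 3 against 3 can give; adjusted p = 1 over the pairs). MiR-29b-1-5 came 5.71 and 4.88 cycles later than miR-29b-3p in UT 2 and UT 3, against 6.30, 5.93 and 6.15 in CD, a difference of -0.83 (exact permutation p = 0.1, the smallest that 2 against 3 can give). This pair did not pass over the 4 groups (exact permutation p = 0.236). Of the 10 pairs, the smallest possible p was reached by 1 for UT, 1 for UL and 0 for WL when set against CD, with an adjusted p of 1 for all. In WL the same spacing was 5.82, 7.05 and 8.03. MiR-29b-2-5p came 7.67 and 7.30 cycles later than miR-29b-3p in UT, 8.30, 7.49 and 7.12 in UL, 8.30 and 8.39 in WL and 8.42, 8.00 and 7.16 in CD.

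**Figure D3:**
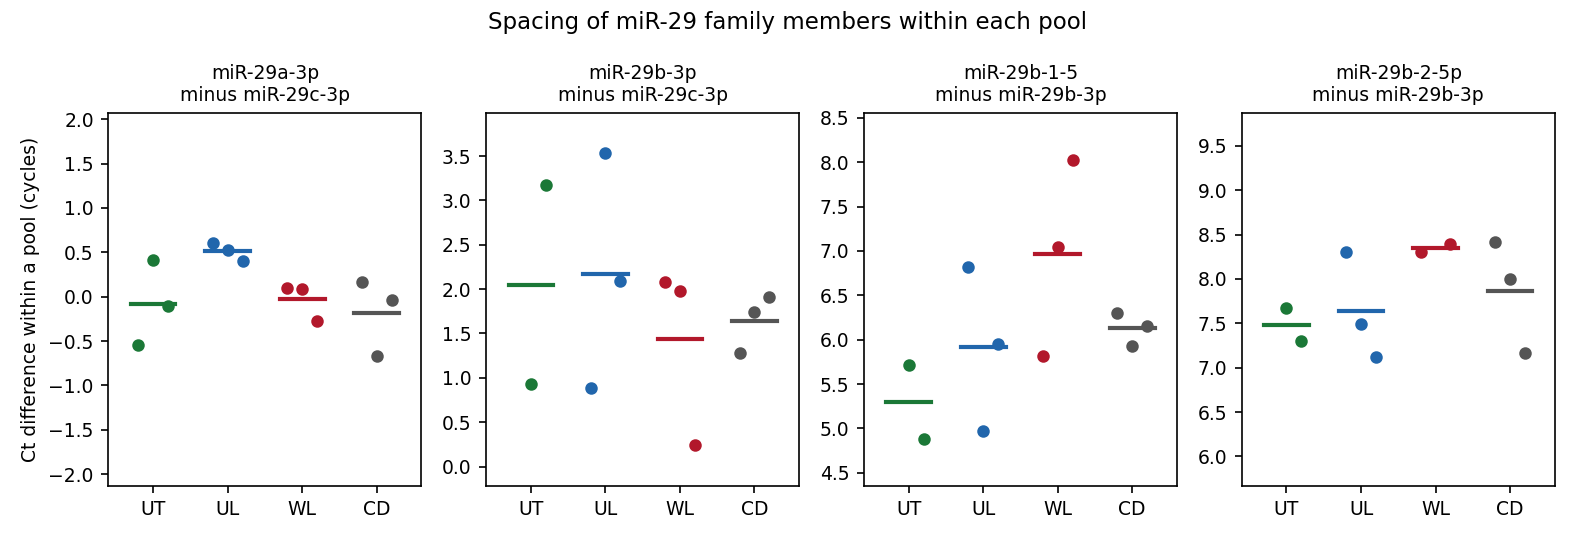
Difference of Ct within a pool (cycles) between pairs of miR-29 family members in UT, UL, WL and CD; points are pools, bars are group means, and all panels span the same number of cycles. MiR-29a-3p minus miR-29c-3p lies between 0.40 and 0.61 in the UL pools, above the CD pools, while the spacing of miR-29b-3p and miR-29c-3p spreads from 0.24 to 3.53 over the pools.

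Across pools the members did not move as a block. MiR-29a-3p and miR-29c-3p, which come from different chromosomes, had a Pearson r of 0.83 and a Spearman rho of 0.77 over 12 pools, and r was 0.64 without the 2 pools farthest from the median of miR-29a-3p. Only 0.216% of the 463 microRNAs outside the family that were measured in all pools followed miR-29a-3p more closely. MiR-29b-3p, which shares a locus with each of them, had an r of -0.08 with miR-29a-3p and of -0.05 with miR-29c-3p over 11 pools. Without the 2 pools farthest from the median of miR-29a-3p, the first of these was -0.85. Without the 2 pools farthest from the median of miR-29b-3p, the second was -0.34. Each value near 0 thus depends on the pools left out for its own pair. Taken as deviations from the group means, the r were 0.89 for miR-29a-3p with miR-29c-3p, -0.53 for miR-29a-3p with miR-29b-3p and -0.40 for miR-29b-3p with miR-29c-3p. UL 1 and UL 2 show it: miR-29a-3p stood at 5.91 in UL 1 and 7.26 in UL 2 and miR-29c-3p at 6.52 and 7.79, while miR-29b-3p stood at 5.63 in UL 1 and 4.26 in UL 2. With its passenger arms, miR-29b-3p had an r of 0.51 for miR-29b-2-5p (10 pools) and of -0.39 for miR-29b-1-5 (11 pools). Without the 2 pools farthest from the median of the passenger arm in question, these were 0.85 and 0.06. The difference between the arms was not tested. These r are descriptions over pools that share a scaling and, for some, a group.

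The assays' accession numbers bear on this. MiR-29a-3p and miR-29c-3p hold adjacent numbers, while miR-29b-3p and miR-29b-2-5p lie elsewhere in the list and miR-29b-1-5 has none. For each pool the median deviation of the 10 assays next to a member in accession order was computed, taken from each assay's mean over all pools. For miR-29a-3p these neighbours stood at -1.18 in UT 2, where miR-29a-3p stood at -1.54, and at 0.72 in WL 2, where it stood at 1.09. For miR-29c-3p they stood at -1.20 in UT 2 and 0.91 in WL 2, where miR-29c-3p stood at -1.19 and 1.13. Over 12 pools the r between member and neighbours was 0.92 for miR-29a-3p and 0.91 for miR-29c-3p, and 0.89 and 0.90 with the other member left out of the neighbours. For miR-29b-3p it was 0.82 and for miR-29b-2-5p 0.78 (11 pools each), and the median over 496 microRNAs was 0.61. A higher r was found for 3.83% of microRNAs in the case of miR-29a-3p and 4.64% in that of miR-29c-3p. The swings of these 2 members from pool to pool were thus shared by assays of unrelated microRNAs with close numbers. The sources used here do not state whether these numbers follow the place of an assay on the PCR plate, and the part of the plate was not tested.

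**Figure D4:**
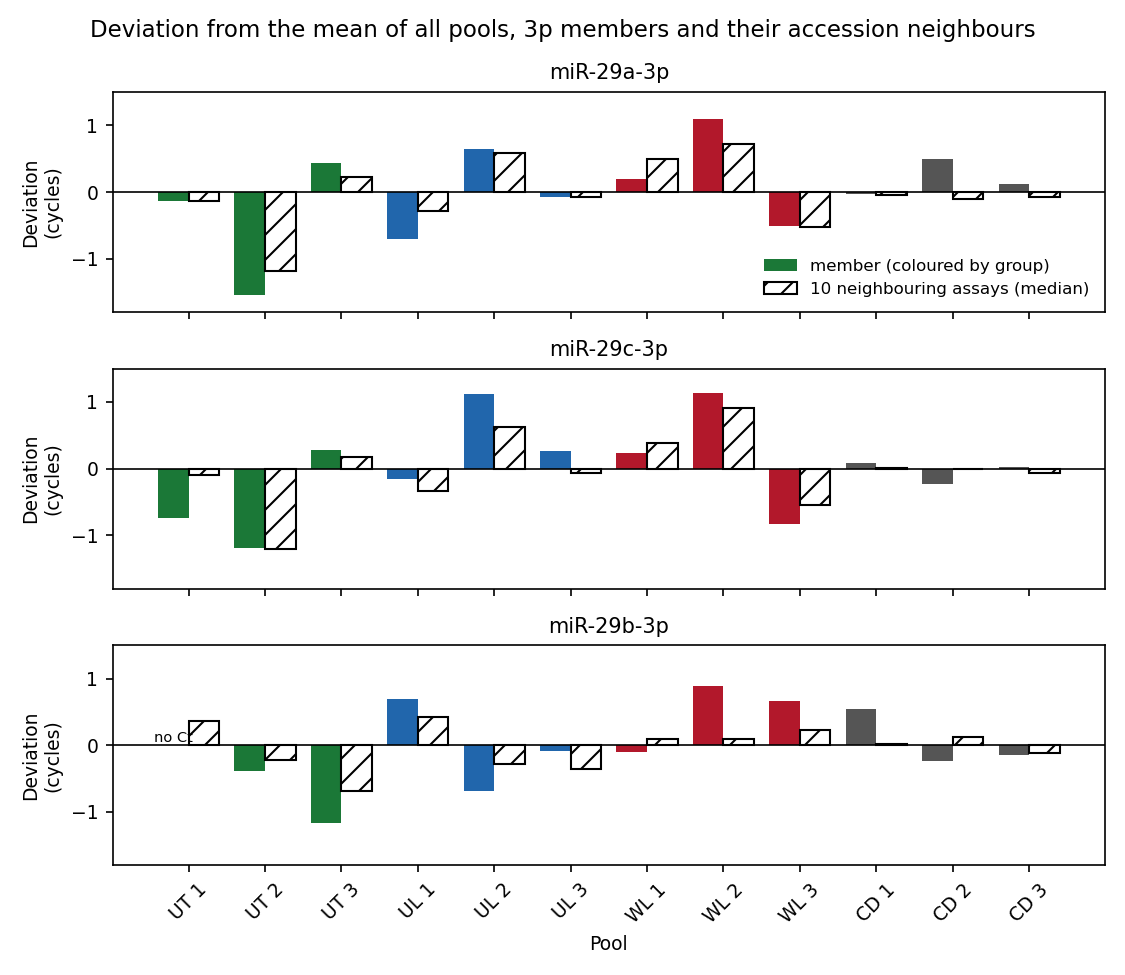
Deviation of each 3p member from its mean over all pools (filled bars, cycles), with the median deviation of the 10 assays next to it in accession order (hatched bars), for the pools of UT, UL, WL and CD. MiR-29a-3p and miR-29c-3p lie low in UT 2 and WL 3 and stand high in UL 2 and WL 2 together with their neighbours; miR-29b-3p has no Ct in UT 1.

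With the neighbours' median deviation subtracted, the log2 fold changes in UT were -0.32 (SE 0.27) for miR-29a-3p, -0.16 (SE 0.25) for miR-29c-3p, -0.37 (SE 0.38) for miR-29b-3p and -0.23 (SE 0.24) for miR-29b-2-5p, with limma adjusted p between 0.679 and 0.847. In UT each lay nearer to 0 than before, and for each the SE was narrower. This did not hold throughout: miR-29a-3p moved away from 0 to -0.39 in UL and to -0.24 in WL, and miR-29b-2-5p to 0.24 in UL. The other members with such a value moved nearer to 0 in UL and WL against CD. The passenger miR-29b-1-5 has no accession and no such value.

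Outside the family, the 3 microRNAs of highest Pearson r with each 3p member over the pools were looked up among 463 candidates. For miR-29a-3p they were miR-27a-3p, which restrains fat cell formation (r 0.90), miR-20a-5p (r 0.82) and miR-34a-5p, a target of p53 (r 0.81), over 12 pools; in accession order they lie 2, 6 and 7 places away. The r of miR-29a-3p with miR-29c-3p, 0.83, lies between the first and the second of these. For miR-29c-3p they were miR-10a-5p (r 0.93), encoded in a Hox cluster, miR-135b-5p (r 0.88) and miR-17-5p (r 0.88), 34 and 35 places away for the first and last. For miR-29b-3p they were miR-196b-5p (r 0.91), let-7g-5p (r 0.90) and miR-204-5p (r 0.88), over 11 pools, 195, 6 and 60 places away.

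Of other microRNAs known as regulators of matrix and fibrosis, 23 of 24 listed entries were measured. In UT 0 rose and 0 fell past the threshold, with 5 log2 fold changes above 0 and 18 below and a median of -0.31, beside -0.01 for all microRNAs. The lowest adjusted p in this list was that of miR-98-5p, a relative of let-7, at -1.43 (SE 0.33, adjusted p = 0.057 by limma). The medians were -0.11 in UL and 0.01 in WL, and 0 passed in either. The entries with the highest mean level, the profibrotic miR-21a-5p and miR-26a-5p, a regulator of fat cell formation, had log2 fold changes of 0.12 and -0.02 in UT, 0.10 and 0.02 in UL and 0.59 and -0.10 in WL. Of microRNAs known to act on insulin signalling, 25 of 25 were measured and 0 passed in UT, UL or WL. They had 6 values above 0 and 19 below in UT (median -0.27), 8 and 17 in UL (median -0.16) and 13 and 12 in WL (median 0.02). Here let-7b-5p and let-7c-5p, which repress the insulin receptor and its substrate, had the highest levels, with -0.32 and -0.12 in UT, -0.43 and -0.50 in UL and 0.03 and 0.02 in WL. The median of the miR-29 family in UT, -0.51, was below those of both lists; no test of that difference was made.

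The authors' deposited table of fold changes gives 2.05 for miR-29a-3p, 1.73 for miR-29c-3p, 1.92 for miR-29b-3p, 1.52 for miR-29b-2-5p and 1.11 for miR-29b-1-5 in its UT column. These ratios grow with later cycles, so in the authors' deposited table a value over 1 stands for a lower level here, and the direction in UT is the same in both. The UL and WL columns of the authors' deposited table could be recomputed from the pools they name in 1 and 0 of 506 assays, against 506 of 506 for UT. For miR-29a-3p the UL column of the authors' deposited table reads 2.24, where the named pools give 1.31 on the same scale. For miR-29b-3p its WL column reads 1.535 in the authors' deposited table, where the named pools give 0.81, on the other side of 1.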

How the data were processed

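The authors deposited Ct values of quantitative RT-PCR before normalization, per the file headers, and these were tested. The deposited normalized values are linear ratios made by the delta Ct method, per the file headers. Set against Ct, each pool's log2 ratio differed from Ct by a constant of 24.74 to 25.46, within 0.0053, so these ratios grow with later cycles. The sources used here do not state the PCR platform, the assay design or the rule that set the threshold. Total RNA came from about 22 mg of fat pad, per the labels' protocols. The Ct table had 507 rows; 1 repeat was dropped, leaving 504 microRNAs and 2 reference RNAs.

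The filter (Ct under 35 in at least 3 pools) removed 0 microRNAs. Group differences were tested two-sided with limma 3.58.1 (lmFit, eBayes; R 4.3.3) over all 12 pools in 1 model of 4 groups, with p-values adjusted (Benjamini-Hochberg) over all 504 and prior degrees of freedom of 3.36. Missing Ct stayed missing. Differences within a pool were tested by exact permutation over pools (two-sided). Both scripts were tested on simulated data. Named were all members, for each 3p member the 3 microRNAs of highest Pearson r among the 463 outside the family measured in all pools, and for each list its 2 members of highest level; miR-98-5p was chosen after its value was seen. The members, lists and tests were chosen with earlier results of these data known. Sequences and coordinates are from RefSeq (GRCm38.p6).

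Group numbers do not mark shared animals in the labels. The correlation of deviations between same-numbered pools ran from -0.26 to 0.21, over 0.1 in 8 of 18 pairs. Between differently numbered pools of different groups it ran from -0.35 to 0.31. These values cannot show whether same-numbered pools share a run or litters. Pools of a group differed by a median of 0.37 to 0.72 cycles per microRNA, so no pool was a copy of another. Alternatives changed the scaling, the filter, missing values, the estimate of spread, the pools used and neighbouring assays.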

Additional observations from a re-analysis of the deposited data

How the results depend on the processing

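For 30 results of a member and a comparison, 27 alternative settings gave 792 values; 741 kept their direction, 51 turned and 0 passed the threshold, with a lowest limma adjusted p of 0.177. In 9 results the direction never turned. The count of members past the threshold was 0 in every comparison under every setting. The causes were not tested. Scaled to U6 (UT 1 and WL 3 have none), miR-29b-1-5 turned to 0.28 in WL against CD, 0.14 in WL against UL and 0.32 in WL against UT, miR-29c-3p to 0.52 in WL against UL, and miR-29b-2-5p to -0.29 in WL against UT. Scaled to RNU-43, in UT against CD miR-29a-3p turned to 0.14, miR-29b-1-5 to 0.71, miR-29b-2-5p to 0.23, miR-29b-3p to 0.028 and miR-29c-3p to 0.23. With the same scaling miR-29a-3p turned to 0.12 and miR-29b-3p to 0.29 in UL against CD, miR-29a-3p to -0.013 and miR-29b-1-5 to -0.21 in UL against UT, miR-29a-3p to -0.04 in WL against UL, and miR-29a-3p to -0.053 and miR-29b-2-5p to -0.48 in WL against UT. With no scaling, miR-29b-1-5 turned to 0.045 in UT against CD and -0.013 in UL against UT, and miR-29a-3p to -0.041 in WL against CD. Quantile normalization gave 0.14 for miR-29b-3p in UL against CD and -0.051 for miR-29a-3p in WL against CD. Missing Ct set to 40 gave -3.73 for miR-29b-2-5p in WL against UT. With neighbouring assays subtracted, miR-29b-3p turned to 0.0066 in UL against CD, miR-29a-3p to -0.24 and miR-29c-3p to -0.058 in WL against CD, and miR-29a-3p to -0.070 in UL against UT.

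With pools left out, 1 at a time or UT 2 and WL 3 together (chosen after seeing the data), some results ran across 0. MiR-29a-3p ran from -0.59 to 0.088 in UL against CD, -0.35 to 0.46 in WL against CD, -0.21 to 0.79 in UL against UT and -0.11 to 0.71 in WL against UL. MiR-29c-3p ran from -0.25 to 0.74 in WL against CD and -0.71 to 0.29 in WL against UL, and miR-29b-3p from -0.43 to 0.25 in UL against CD. MiR-29b-1-5 ran from -0.14 to 0.13 in UT against CD, -0.0034 to 0.30 in UL against CD, -0.69 to 0.047 in WL against CD and -0.66 to 0.080 in WL against UT. MiR-29b-2-5p ran from -0.076 to 0.41 in UL against CD, -0.59 to 0.082 in WL against CD and -0.064 to 0.59 in WL against UT. Where this left a group with a lone pool, that pool is assumed to vary like the others. With the pool number as a replicate block, miR-29b-3p in UT against CD was -0.72 (limma adjusted p = 0.733) and 0 members passed in any comparison. The number of pools limits the precision.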
